A study of Aphis gossypii with 6 samples.

Results

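The enzymes of glycolysis and of the citric acid cycle were compared between 2 strains of Aphis gossypii, the cotton or melon aphid. Of 14013 genes in the table, 73 were taken as members: genes whose KEGG pathway field names glycolysis/gluconeogenesis (53 genes) or the citric acid cycle (27 genes), with 7 genes in both. The rule left out 4 succinate dehydrogenase subunits by their product text. RNA came from pooled whole bodies of a strain that is resistant to the pyrethroid insecticide beta-cypermethrin (RGL, 3 libraries) and of a sensitive strain whose genotype label is WT (SGL, 3 libraries), called susceptible here. Neither strain had been exposed to the insecticide, and the resistant aphids derive from a field population found on Chinese wolfberry. The sources used here state no age, morph or number of aphids per pool.

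Glycolysis splits glucose into pyruvate in the cytosol, and gluconeogenesis runs the same steps backwards with a few enzymes of its own at the irreversible points. The pyruvate dehydrogenase complex turns pyruvate into acetyl-CoA in the mitochondrion, where the citric acid cycle oxidises it and feeds electrons to respiration. Cycle intermediates that leave the mitochondrion supply fatty acid synthesis, amino acids and cytosolic NADPH, and pyruvate carboxylase refills the cycle. Aphids live on phloem sap, a diet rich in sucrose.

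The libraries held 31290134 to 46681719 counts, and 11149 genes passed the filter on low counts and were tested. Resistant replicate 1 stood apart from the other resistant libraries on the second principal component of log2 CPM, which held 16.4% of the variance, while the first held 70.4% and separated the strains. No label says whether the replicates of a strain were reared or pooled separately, and p-values therefore reflect a spread that may be technical. With 1 strain per condition, resistance and other strain differences cannot be told apart. The calls on marker genes below stand beside 21.4% higher and 14.4% lower among all tested genes, at an edgeR adjusted p under 0.05. Of 4 marker lists, the gut list (cathepsin B, maltase, aminopeptidase N and sucrase texts) held 37 genes. In the resistant strain 28 of its 33 tested genes (84.8%) were higher and 0 lower, with a median log2 difference of 1.40. Its summed level was 11827 to 15245 CPM against 4320 to 4568 CPM. A pair of its cathepsin B-like genes, LOC114127871 and LOC114130417, had no count in any library. Muscle markers summed to 14243 to 16188 CPM in resistant and 12984 to 13846 CPM in susceptible libraries, with 6 of 22 higher and 6 lower (27.3% each). Nervous system markers summed to 514 to 589 CPM against 683 to 688 CPM, with 0 of 9 higher and 4 lower. Germline markers summed to 467 to 501 CPM against 432 to 454 CPM, with 1 of 7 (14.3%) higher. With TMM factors the CPM of all genes do not add to a fixed total. They summed to 1165800, 1011900 and 994070 CPM in resistant replicates 1 to 3 and to 944050, 953990 and 947660 CPM in the susceptible replicates. In FPKM, which is scaled to library totals, the germline sums overlapped (124 to 161 against 145 to 154). The gut, muscle and nervous system sums did not. In whole bodies, more cells of a type and more RNA per cell cannot be told apart, and the part of these markers in the results below was not tested.

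In glycolysis, more genes were higher in the resistant strain than lower. Among 49 tested members, 27 (55.1%) were higher and 6 (12.2%) lower at an edgeR adjusted p under 0.05, where all tested genes gave 21.4% higher and 14.4% lower. The median log2 difference, resistant over susceptible, was 0.39 in glycolysis and -0.00 over all tested genes. Differences of at least 1.5-fold were called for 19 members upward and 5 downward, against backgrounds of 14.7% and 6.94% of all tested genes. The libraries of the strains did not overlap for 77.6% of the tested members, 30 with the resistant libraries above and 8 with them below, where the background was 54.1% of all tested genes (28.2% with the resistant libraries above and 25.8% below). Summed over the members, glycolysis stood at 14506, 12345 and 12832 CPM (counts scaled to a common library size with TMM factors) in resistant replicates 1 to 3 and at 9758, 10165 and 9828 CPM in the susceptible replicates. The sums over all genes, given above, also differed between the strains. With library totals as the only scaling, which moves the median of all tested genes to -0.15 and the background to 15.8% higher and 20.8% lower, 22 members were higher and 6 lower, with a median of 0.23.

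**Figure D1:**
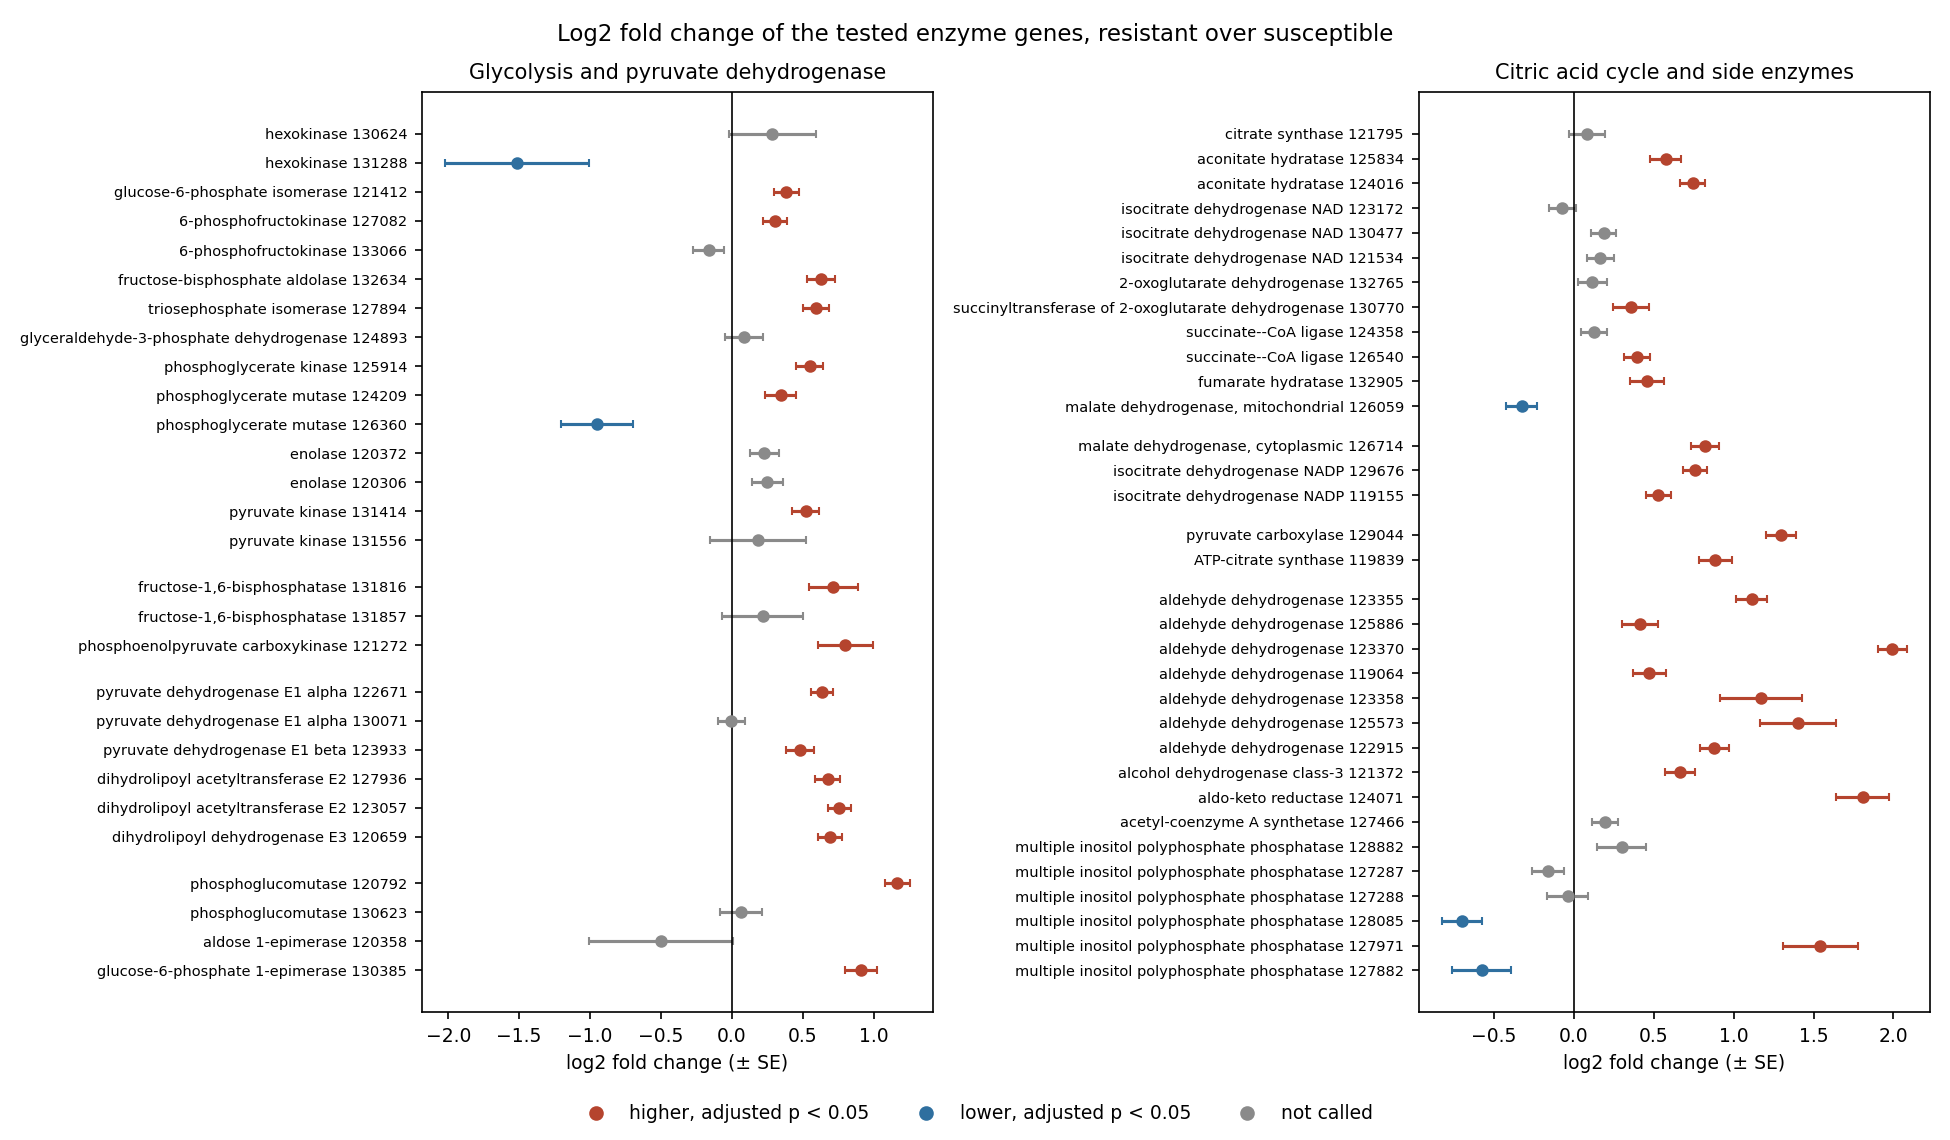
Log2 fold change (resistant over susceptible, x axis) with its SE for each tested member whose product text names an enzyme, ordered by pathway step and labelled with the last 6 digits of its LOC number. On the left, from the top, are core glycolysis, gluconeogenesis, the pyruvate dehydrogenase complex and sugar entry. On the right are the classical cycle steps, the cytosolic or NADP enzymes, pyruvate carboxylase with ATP-citrate synthase, and side enzymes. The pyruvate dehydrogenase genes have a median of 0.66 and the classical cycle steps, without succinate dehydrogenase, one of 0.18, and pyruvate carboxylase lies at 1.30.

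Besides hexokinase, treated below, sugar enters through phosphoglucomutase, which links glycogen to glucose 6-phosphate, and through epimerases that interconvert sugar anomers. Phosphoglucomutase (LOC114120792) was at 265, 281 and 307 CPM in resistant replicates 1 to 3 and at 131, 124 and 125 CPM in the susceptible replicates, a log2 difference of 1.17 ± 0.09 (SE, edgeR adjusted p = 4.88e-05). The putative glucose-6-phosphate 1-epimerase (LOC114130385) was at 50.5, 46.3 and 46.3 CPM against 27.5, 26.2 and 22.3 CPM (0.91 ± 0.11, edgeR adjusted p = 0.000559). Every resistant library lay above every susceptible one for both genes. The second phosphoglucomutase gene, named phosphoglucomutase-2 (LOC114130623), was at 24.4 ± 4.31 and 23.4 ± 1.79 CPM (SD, n = 3) and was not called, so the share of the main gene in the deposited FPKM (a per-length measure) of this enzyme was 92.2% ± 0.861 in the resistant strain and 84.5% ± 1.35 in the susceptible one. The aldose 1-epimerase-like gene (LOC114120358) stayed near 1 CPM or below in both strains and was not called.

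The core of glycolysis, from hexokinase to pyruvate kinase, was less uniform. Of 15 tested core members, 7 (46.7%) were higher and 2 (13.3%) lower, with a median of 0.29. All tested genes gave 21.4% higher and 14.4% lower. With library totals alone 4 core members were higher and 2 lower, with a median of 0.15. That scaling gave 15.8% higher and 20.8% lower among all tested genes, with a median of -0.15. The trunk genes that passed 1.5-fold were fructose-bisphosphate aldolase, which splits the hexose, and triosephosphate isomerase, which interconverts its products. Aldolase (LOC114132634) was at 1455, 1270 and 1374 CPM in the resistant replicates and 888, 877 and 884 CPM in the susceptible ones (0.63 ± 0.10, edgeR adjusted p = 0.00167). Triosephosphate isomerase (LOC114127894) was at 279, 242 and 244 CPM against 173, 176 and 157 CPM (0.59 ± 0.09, edgeR adjusted p = 0.00175). Both sets of libraries were apart, the resistant ones above.

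Smaller differences were called at 5 further trunk steps. Phosphoglycerate kinase (LOC114125914), the first ATP-making step, was at 286 ± 27.8 against 195 ± 8.08 CPM (SD, n = 3), 0.55 ± 0.10 on the log2 scale. Pyruvate kinase (LOC114131414), which makes pyruvate and ATP, was at 996 ± 67.8 against 694 ± 7.67 CPM (0.52 ± 0.09, edgeR adjusted p = 0.00356). Both calls held without any single library. Glucose-6-phosphate isomerase (LOC114121412, 0.39), phosphofructokinase (LOC114127082, 0.30, the main control point of the pathway) and phosphoglycerate mutase 1 (LOC114124209, 0.35) had edgeR adjusted p = 0.0111, 0.0238 and 0.0387. These 3 calls were lost without any 1 of the susceptible libraries, with edgeR adjusted p up to 0.072, 0.128 and 0.173, and the latter 2 also without resistant replicate 2 (edgeR adjusted p = 0.0733 and 0.0763). They were lost with library totals alone as well, where their log2 differences were 0.23, 0.15 and 0.19.

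Glyceraldehyde-3-phosphate dehydrogenase and enolase, the trunk genes with the highest FPKM, were not called. Glyceraldehyde-3-phosphate dehydrogenase (LOC114124893), which makes the NADH of glycolysis, was at 3347, 2475 and 2751 CPM in the resistant and 2625, 2815 and 2623 CPM in the susceptible replicates (0.09 ± 0.13, edgeR adjusted p = 0.635). The strains overlapped, with resistant replicate 1 highest and resistant replicate 2 lowest. Enolase (LOC114120372) was at 1853 ± 121 against 1581 ± 71.0 CPM (SD, n = 3; 0.23 ± 0.10, edgeR adjusted p = 0.118). Its resistant libraries all lay above the susceptible ones, and it was called without resistant replicate 1 (0.18, edgeR adjusted p = 0.0159). At these steps a second gene, where counted, added little: alpha-enolase-like LOC114120306 made up 2.45% ± 0.341 of the enolase FPKM in the resistant strain and 2.42% ± 0.131 in the susceptible one.

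The core members called lower were genes at low levels. Hexokinase, which phosphorylates glucose at the entry to the pathway, was represented by a pair of hexokinase type 2-like genes, both near 1 CPM or below. LOC114130624 was at 1.21 ± 0.280 against 1.00 ± 0.143 CPM and was not called. LOC114131288 was at 0.0745, 0.368 and 0.218 CPM in the resistant and 0.654, 0.666 and 0.719 CPM in the susceptible replicates (-1.52 ± 0.51, edgeR adjusted p = 0.0474). Its resistant libraries all lay below the susceptible ones, yet the call was kept only without resistant replicate 2 and was lost in the other 5 leave-one-out fits, with edgeR adjusted p from 0.0843 without resistant replicate 1 to 0.137 without susceptible replicate 3. Phosphoglycerate mutase 2-like (LOC114126360), a minor copy, was at 1.90, 1.24 and 1.31 against 2.61, 2.98 and 2.90 CPM (-0.95 ± 0.25, edgeR adjusted p = 0.0204), a call lost without resistant replicate 2 (0.0703) or any susceptible library (0.0546 to 0.0731). It gave 0.278% ± 0.0342 of the mutase FPKM in the resistant strain and 0.682% ± 0.0528 in the susceptible one.

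The gluconeogenic enzymes bypass the irreversible steps of glycolysis. Phosphoenolpyruvate carboxykinase (LOC114121272), which belongs to both pathways, was at 747, 474 and 435 CPM in the resistant and 324, 316 and 310 CPM in the susceptible replicates (0.80 ± 0.19, edgeR adjusted p = 0.0127). Fructose-1,6-bisphosphatase (LOC114131816) was at 242, 164 and 147 against 117, 110 and 109 CPM (0.71 ± 0.17, edgeR adjusted p = 0.0134). For both genes all resistant libraries lay above the susceptible ones and resistant replicate 1 was far above replicates 2 and 3. Over the 3 gluconeogenic genes, resistant replicate 1 exceeded the mean of the other resistant libraries by a median of 0.64 on the log2 scale. The gut markers summed to 15245 CPM in that library against 11886 and 11827 CPM in the others. All genes summed to 1165800 CPM in it against 1011900 and 994070 CPM. A link between the gluconeogenic genes and the gut markers was not tested. Without resistant replicate 1 the differences were 0.52 (edgeR adjusted p = 3.24e-07) and 0.47 (4.48e-06). Without susceptible replicate 2 or 3 neither passed, with edgeR adjusted p = 0.0567 and 0.0627 for the carboxykinase and 0.0595 and 0.0659 for the bisphosphatase. A neighbouring fructose-1,6-bisphosphatase gene (LOC114131857) was at 2.99 ± 0.784 against 2.56 ± 0.708 CPM and was not called.

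The pyruvate dehydrogenase complex, whose 6 genes count in both pathways, was higher at each of its catalytic components. Of the 6 genes, 5 were called higher and 0 lower, with a median of 0.66, and the same count was found with library totals alone and without resistant replicate 1. The E1 alpha subunit (LOC114122671), part of the component that decarboxylates pyruvate, was at 357, 362 and 348 CPM in the resistant and 221, 230 and 234 CPM in the susceptible replicates (0.64 ± 0.08, edgeR adjusted p = 0.000514). Its partner E1 beta (LOC114123933) was at 375, 319 and 308 against 238, 244 and 237 CPM (0.48 ± 0.10, edgeR adjusted p = 0.0059). The strains did not overlap for either subunit.

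The E2 component transfers the acetyl group, and E3 re-oxidises the lipoyl arm in this and related complexes. The E2 genes LOC114123057 and LOC114127936 were at 187, 184 and 187 CPM and at 283, 255 and 242 CPM in the resistant replicates, and at 105, 118 and 106 CPM and 156, 165 and 167 CPM in the susceptible ones (0.76 ± 0.08 and 0.68 ± 0.09, edgeR adjusted p = 0.000267 and 0.000725). The E3 gene, dihydrolipoyl dehydrogenase (LOC114120659), was at 315, 345 and 361 against 210, 212 and 211 CPM (0.69 ± 0.08, edgeR adjusted p = 0.000532). All resistant libraries lay above all susceptible ones for these genes, and the 5 calls held in every leave-one-out fit. The exception was the second E1 alpha gene, annotated as type II (LOC114130071), at 49.3, 52.2 and 46.8 against 46.6, 49.5 and 52.5 CPM (-0.00 ± 0.09, edgeR adjusted p = 0.981). It supplied 11.6% ± 0.360 of the E1 alpha FPKM in the resistant strain and 17.0% ± 0.428 in the susceptible strain.

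Side enzymes of the glycolysis map, which handle aldehydes, alcohols, acetate and inositol phosphates, held the greatest positive differences. All 7 aldehyde dehydrogenases, which oxidise aldehydes to acids, were called higher, with a median of 1.11; with library totals alone 5 were. The mitochondrial-type gene LOC114123370 was at 79.1, 79.0 and 76.8 CPM in the resistant and 20.2, 19.1 and 19.8 CPM in the susceptible replicates (1.99 ± 0.09, edgeR adjusted p = 7.77e-06). LOC114123355, also of mitochondrial type, was at 232, 193 and 195 against 94.1, 100 and 92.4 CPM (1.11 ± 0.10, edgeR adjusted p = 0.000116). Replicates lay close together in both strains for the first gene, and the strains did not overlap for any of the 7.

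The putative aldehyde dehydrogenase family gene LOC114122915 was at 86.8, 80.8 and 83.8 against 43.6, 49.3 and 43.7 CPM (0.88 ± 0.09). The cytosolic-type LOC114123358 was at 4.88, 4.47 and 7.09 against 2.90, 2.46 and 1.92 CPM (1.17 ± 0.26). LOC114125573, outside the rule for naming because its mean was under 5 CPM in both strains, differed by 1.40 ± 0.24. These 3 calls held in every leave-one-out fit. The remaining pair differed by less: LOC114119064 by 0.47 ± 0.10 and the dimeric NADP-preferring gene LOC114125886 by 0.41 ± 0.11. The first was lost without susceptible replicate 1 or 3 (edgeR adjusted p = 0.0519 and 0.0543), and the second without resistant replicate 2 (0.0828) or any susceptible library (up to 0.099). Within the summed FPKM of the 7 genes, LOC114123370 took 20.6% ± 0.655 in the resistant strain and 10.1% ± 0.681 in the susceptible one, and LOC114125886 took 21.0% ± 3.21 and 30.9% ± 1.01.

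**Figure D2:**
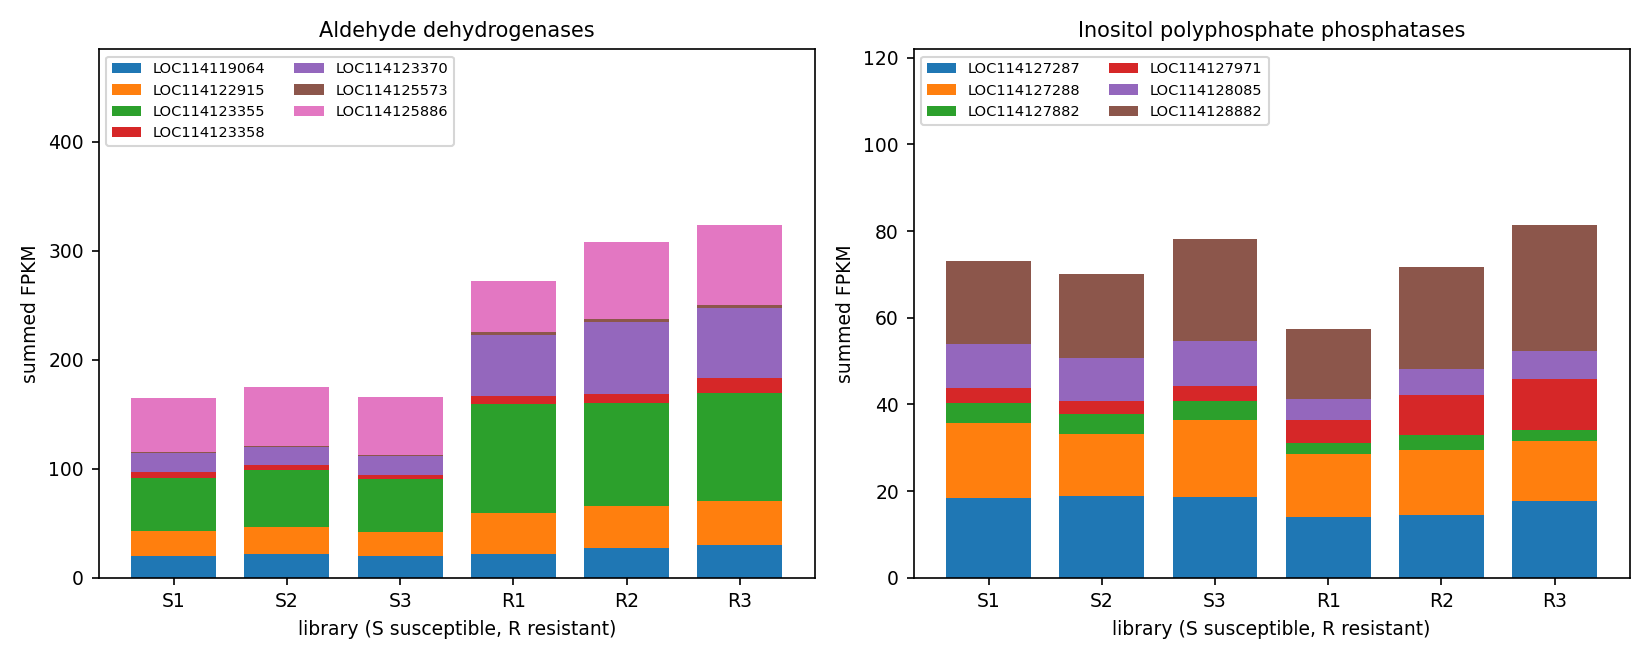
Summed deposited FPKM (y axis) of the aldehyde dehydrogenase genes (left) and the multiple inositol polyphosphate phosphatase genes (right) in each library, S susceptible and R resistant with their replicate numbers, stacked by gene. The aldehyde dehydrogenases sum to 272 to 323 FPKM in the resistant libraries and 165 to 175 in the susceptible ones, while the phosphatases sum to 57.4 to 81.3 and 70.1 to 78.3 and overlap.

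Among other side enzymes was the 1,5-anhydro-D-fructose reductase-like gene (LOC114124071), grouped here under aldo-keto reductase by its KEGG assignment. It was at 571, 381 and 377 CPM in the resistant and 127, 120 and 133 CPM in the susceptible replicates (1.81 ± 0.17, edgeR adjusted p = 0.000143). Alcohol dehydrogenase class-3 (LOC114121372), the enzyme that clears formaldehyde as its glutathione adduct, was at 56.9, 56.1 and 53.0 against 37.2, 33.4 and 34.0 CPM (0.67 ± 0.09, edgeR adjusted p = 0.00105). For both, the resistant libraries were all above, and resistant replicate 1 was highest for the reductase. Acetyl-coenzyme A synthetase (LOC114127466), which activates acetate, was at 124 ± 3.95 against 108 ± 4.85 CPM and was not called (0.19 ± 0.08).

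Of the 6 multiple inositol polyphosphate phosphatases, which remove phosphates from inositol phosphates, 1 (16.7%) was higher, 2 (33.3%) were lower and 3 were not called. All tested genes gave 21.4% higher and 14.4% lower. The strains did not overlap for 66.7% of the family, where the background was 54.1% of all tested genes. LOC114127971 was at 10.02, 14.8 and 18.9 CPM in the resistant and 5.18, 4.63 and 5.24 CPM in the susceptible replicates (1.54 ± 0.24, edgeR adjusted p = 0.00166). LOC114128085 was at 10.3, 11.4 and 12.1 against 18.5, 18.2 and 18.4 CPM (-0.70 ± 0.12, edgeR adjusted p = 0.00324). LOC114127882 was at 4.96, 5.61 and 3.93 against 7.24, 7.44 and 6.98 CPM (-0.58 ± 0.18, edgeR adjusted p = 0.039). None of these 3 genes overlapped between strains, but the last call was lost without resistant replicate 3 (0.0858) or any susceptible library (0.102 to 0.122). In the RefSeq gene table these 3 lie in a row with 1 other gene between each, so genes of opposite direction are near neighbours. The family's summed FPKM was 70.1 ± 12.05 in the resistant strain and 73.8 ± 4.13 in the susceptible one. In CPM the order was reversed, at 143 ± 12.6 and 139 ± 6.14.

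Product texts that name another product or none are carried by 8 members, although the table assigns them to a pathway enzyme. Of 6 tested, 2 were higher and 2 lower, with a median of 0.07. Luc7-like protein 3 (LOC114123937) was at 66.2, 77.2 and 71.2 CPM in the resistant and 116, 112 and 115 CPM in the susceptible replicates (-0.68 ± 0.09, edgeR adjusted p = 0.000692). Uncharacterized LOC114125984 was at 19.5, 16.7 and 19.7 against 26.3, 29.9 and 27.5 CPM (-0.59 ± 0.12), and uncharacterized LOC114120470 at 39.6, 47.3 and 47.7 against 29.5, 26.3 and 28.7 CPM (0.67 ± 0.11). The strains were apart for these 3 genes. The zinc finger C2HC domain gene LOC114129103, the only such member in the citric acid cycle, was at 19.0 ± 1.21 against 14.9 ± 0.498 CPM (0.35 ± 0.12, edgeR adjusted p = 0.0484), a call lost without resistant replicate 2 (0.162) or any susceptible library (0.128 to 0.159). Over both pathways, 3 members had no count in any library and 3 more failed the filter, which left 67 tested.

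In the citric acid cycle, 17 of 25 tested members (68.0%) were higher in the resistant strain and 1 (4.0%) was lower, beside the same backgrounds of 21.4% and 14.4%. The median log2 difference was 0.48, and with library totals alone 14 were higher and 2 lower, with a median of 0.32. Under that scaling all tested genes gave 15.8% higher and 20.8% lower. Without the 7 genes shared with glycolysis, 11 of 18 were higher and 1 lower, with a median of 0.38. The libraries did not overlap for 84.0% of the tested members, 20 with the resistant libraries above and 1 with them below. The background was 54.1% of all tested genes, 28.2% with the resistant libraries above and 25.8% with them below. The summed level was 11721, 10766 and 10881 CPM in the resistant and 8180, 8598 and 8457 CPM in the susceptible replicates. The CPM sums over all genes, given above, also differed between the strains. In FPKM the cycle members summed to 4284, 4545 and 4619 in the resistant and 3799, 3956 and 3983 in the susceptible replicates, a smaller gap.

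The classical cycle steps had the lowest median difference of the cycle's enzyme groups. Of 12 tested members, 5 (41.7%) were higher and 1 (8.33%) lower, with a median of 0.18. All tested genes gave 21.4% higher and 14.4% lower, with a median of -0.00. With library totals alone 3 members were higher and 2 lower, with a median of 0.03. That scaling gave 15.8% higher and 20.8% lower among all tested genes, with a median of -0.15. The group lacks succinate dehydrogenase, also a step of the cycle, because the rule left its subunits out. Of its 4 subunit genes, 3 were higher and 0 lower, with a median of 0.46. The group holds an aconitate hydratase gene annotated as cytoplasmic, without which 4 of 11 were higher and 1 lower, with a median of 0.17. Citrate synthase (LOC114121795), the entry step, was at 2091, 1736 and 1718 CPM in the resistant and 1700, 1740 and 1795 CPM in the susceptible replicates (0.08 ± 0.11, edgeR adjusted p = 0.599). The strains overlapped, and resistant replicate 1 was the highest library. The 3 tested subunit genes of the NAD-dependent isocitrate dehydrogenase, the rate-controlling oxidation, were not called either. Its alpha subunit (LOC114123172) was at 393, 363 and 362 against 380, 399 and 397 CPM (-0.07 ± 0.08, edgeR adjusted p = 0.526), and was lower with library totals alone (-0.23, edgeR adjusted p = 0.0439).

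Further round the cycle, 2-oxoglutarate dehydrogenase (LOC114132765), the next decarboxylating enzyme, was at 543 ± 28.3 against 501 ± 22.2 CPM (SD, n = 3; 0.11 ± 0.09, edgeR adjusted p = 0.347). Its succinyltransferase partner (LOC114130770) was at 407 ± 51.2 against 318 ± 26.8 CPM (0.36 ± 0.12, edgeR adjusted p = 0.0419), a call lost without resistant replicate 2 (0.0789) or any susceptible library (0.0735 to 0.173). Of the succinate--CoA ligase subunits, which make a nucleoside triphosphate, LOC114126540 was higher (0.40 ± 0.08, edgeR adjusted p = 0.0062) and LOC114124358 was not called (0.13 ± 0.08). Fumarate hydratase (LOC114132905), which hydrates fumarate to malate, was at 282 ± 32.3 against 206 ± 14.3 CPM (0.46 ± 0.11, edgeR adjusted p = 0.0112), and its call was lost without susceptible replicate 1 (0.0638) or 3 (0.062).

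Aconitate hydratase, which isomerises citrate, was higher in both its counted forms. The mitochondrial gene LOC114125834 was at 839, 766 and 729 CPM in the resistant and 497, 548 and 523 CPM in the susceptible replicates (0.57 ± 0.10, edgeR adjusted p = 0.00256). The gene annotated as cytoplasmic, LOC114124016, was at 292, 269 and 280 against 163, 172 and 167 CPM (0.74 ± 0.08, edgeR adjusted p = 0.000248). Neither overlapped between strains.

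Malate dehydrogenase, which interconverts malate and oxaloacetate on both sides of the mitochondrial membrane, differed in opposite directions by compartment. The mitochondrial gene LOC114126059, the only citric acid cycle member called lower, was at 865, 775 and 789 CPM in the resistant and 998, 1061 and 987 CPM in the susceptible replicates (-0.33 ± 0.10, edgeR adjusted p = 0.0285). All its resistant libraries were below the susceptible ones, but the call was kept only without resistant replicate 1 and was lost in the other 5 leave-one-out fits, with edgeR adjusted p from 0.0621 without resistant replicate 3 to 0.132 without susceptible replicate 2. The cytoplasmic gene LOC114126714 was at 593, 526 and 566 against 312, 328 and 315 CPM (0.82 ± 0.09, edgeR adjusted p = 0.000285), with all resistant libraries above. Within each library, the FPKM of the cytoplasmic gene divided by that of the mitochondrial one was 0.663, 0.656 and 0.694 in the resistant and 0.302, 0.299 and 0.308 in the susceptible replicates. This ratio and the ratios below were chosen after the values were seen and carry no test. They do not depend on how the libraries were scaled, and not every ratio computed was apart between strains. That of phosphoenolpyruvate carboxykinase to pyruvate kinase (LOC114131414) overlapped, at 0.684, 0.493 and 0.443 in the resistant and 0.458, 0.454 and 0.437 in the susceptible replicates.

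The NADP-dependent isocitrate dehydrogenases, which make NADPH outside the classical cycle step, were both higher. The cytoplasmic gene LOC114129676 was at 391, 380 and 383 CPM in the resistant and 231, 222 and 229 CPM in the susceptible replicates (0.76 ± 0.08, edgeR adjusted p = 0.000214). The mitochondrial gene LOC114119155 was at 91.8 ± 0.516 against 63.7 ± 2.50 CPM (0.53 ± 0.08, edgeR adjusted p = 0.0015). Its libraries and those of the cytoplasmic gene were apart between strains. The FPKM ratio of the cytoplasmic NADP gene to the NAD alpha subunit was 1.08, 1.14 and 1.15 in the resistant and 0.663, 0.606 and 0.627 in the susceptible replicates.

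Pyruvate carboxylase and ATP-citrate synthase, grouped here after their values were seen, had the greatest log2 differences among the cycle's members. Other genes that feed or drain the cycle differed by less. Phosphoenolpyruvate carboxykinase differed by 0.80, and the 6 pyruvate dehydrogenase genes by -0.00 to 0.76. Pyruvate carboxylase (LOC114129044), which turns pyruvate into oxaloacetate, was at 694, 710 and 778 CPM in the resistant and 282, 307 and 299 CPM in the susceptible replicates (1.30 ± 0.09, edgeR adjusted p = 4.38e-05). ATP-citrate synthase (LOC114119839), which splits exported citrate into acetyl-CoA and oxaloacetate in the cytosol, was at 1024, 1118 and 1238 against 601, 614 and 614 CPM (0.89 ± 0.10, edgeR adjusted p = 0.000413). Every resistant library lay above every susceptible one for both, and in both resistant replicate 1 was the lowest of the resistant libraries. Both calls held in every alternative fit. Relative to citrate synthase in the same library, pyruvate carboxylase FPKM was 0.178 ± 0.027 in the resistant strain and 0.0758 ± 0.0026 in the susceptible one (SD, n = 3), and ATP-citrate synthase FPKM was 0.269 ± 0.051 and 0.152 ± 0.0028.

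**Figure D3:**
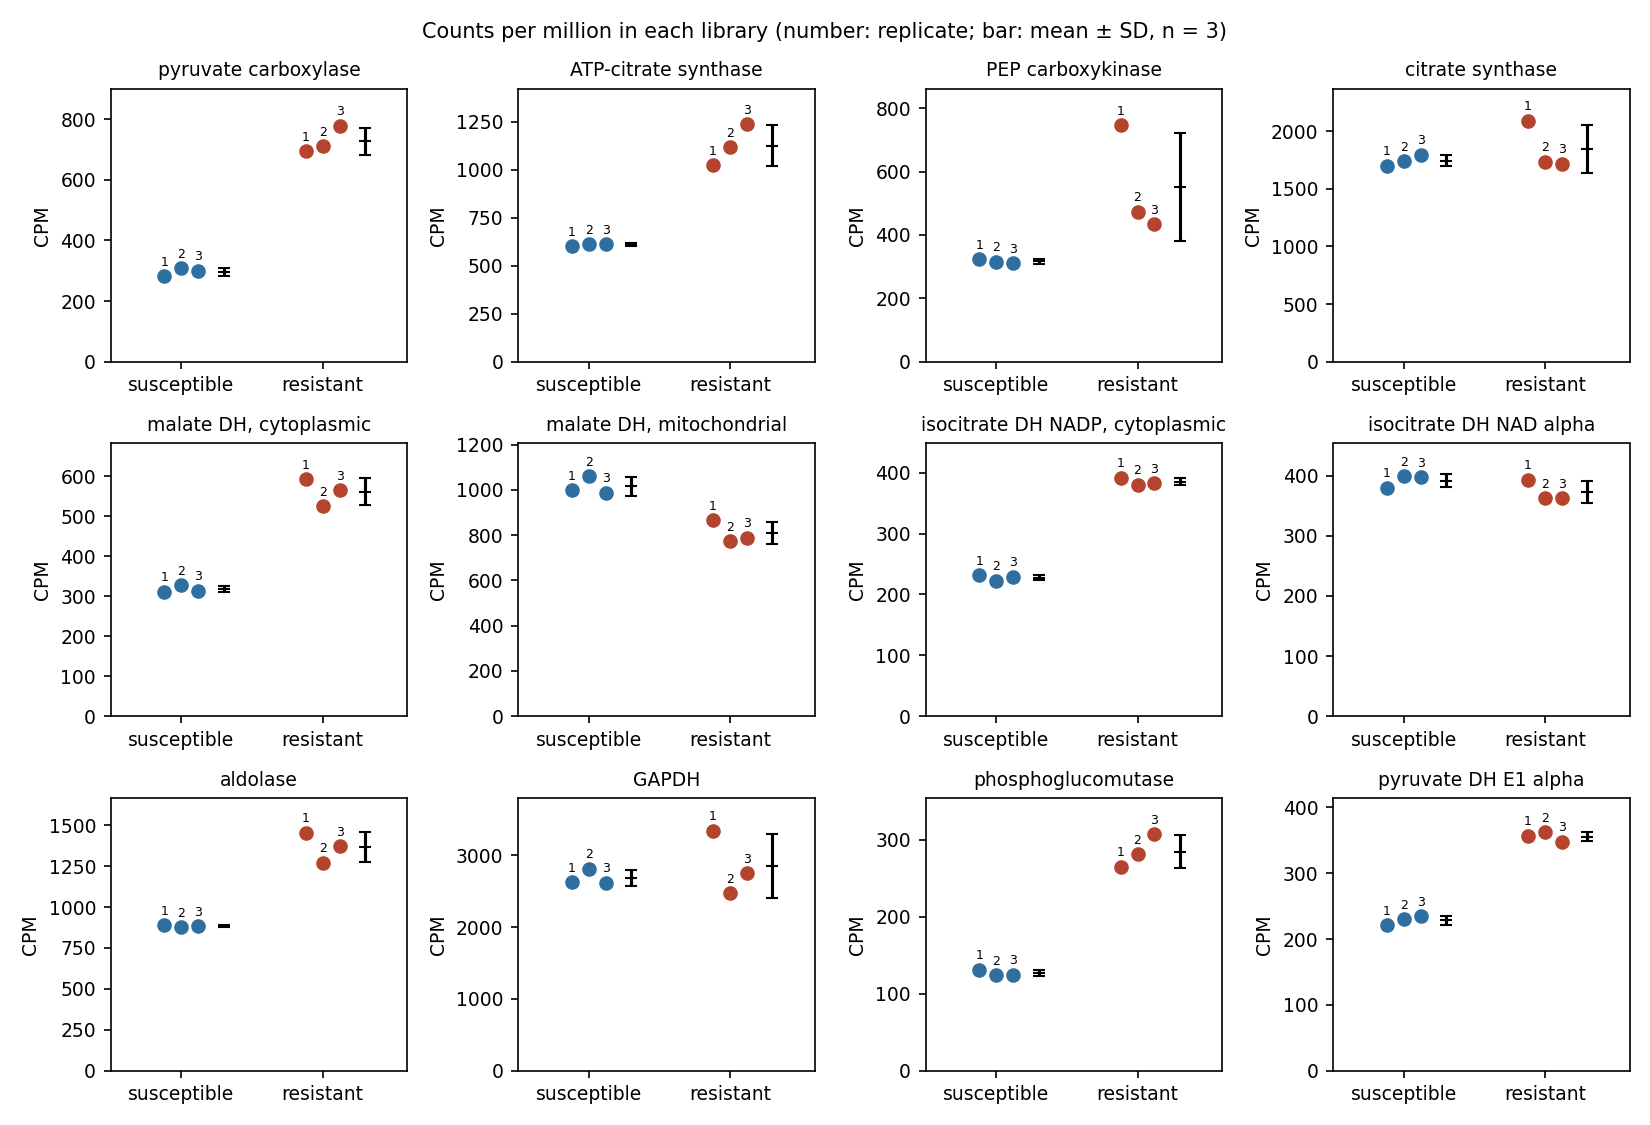
CPM (y axis, from 0) of 12 member genes in each library, with replicate numbers beside the points and the mean with its SD (n = 3) as a bar. Pyruvate carboxylase and ATP-citrate synthase are separated between strains, citrate synthase and glyceraldehyde-3-phosphate dehydrogenase (GAPDH) overlap, and phosphoenolpyruvate (PEP) carboxykinase is highest in resistant replicate 1 at 747 CPM. DH stands for dehydrogenase.

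**Figure D4:**
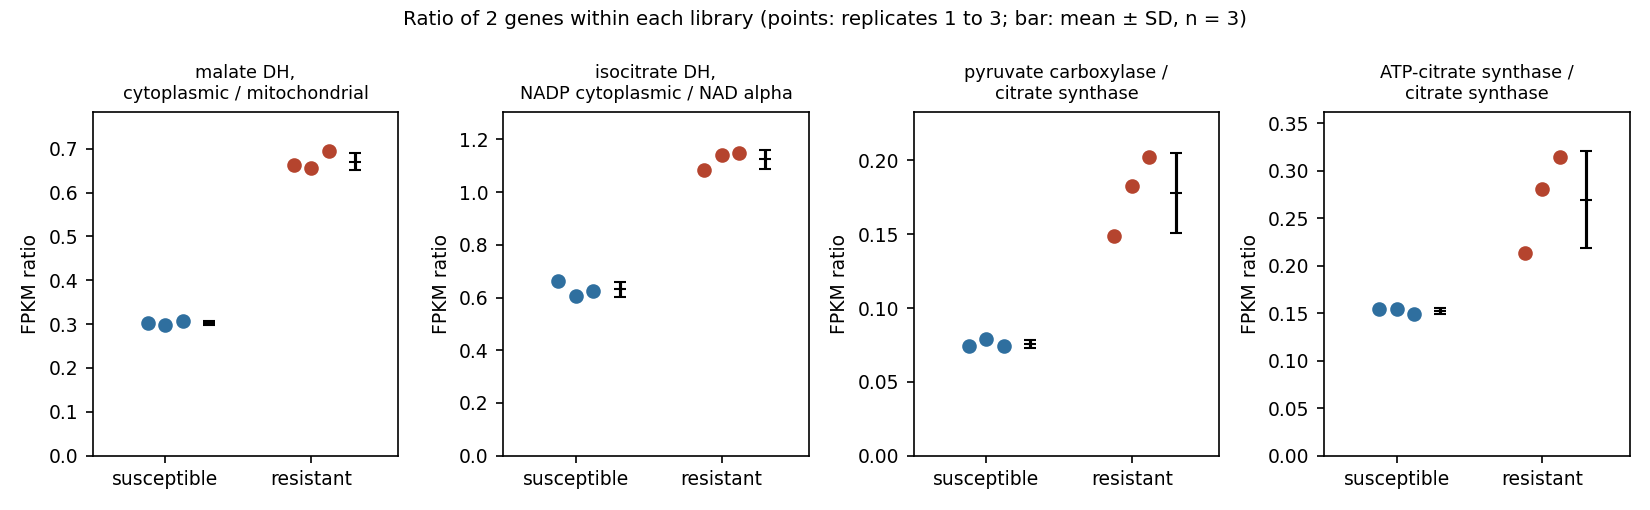
Ratio of the deposited FPKM of a pair of genes (y axis, from 0) within each of the 3 libraries of each strain, with the mean and SD as a bar. In each of these panels, chosen after the values were seen, the resistant libraries lie above the susceptible ones, and the cytoplasmic over mitochondrial malate dehydrogenase (DH) ratio is 0.671 ± 0.020 against 0.303 ± 0.0048.

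Levels between genes were read from the deposited FPKM. The median tested member stood at 27.6 FPKM in glycolysis and 123 FPKM in the citric acid cycle, where all tested genes had a median of 14.8 FPKM, and 17 of 49 and 18 of 25 tested members were in the top 10% of tested genes. Glycolysis ranged from 0.229 FPKM to 1640 FPKM for glyceraldehyde-3-phosphate dehydrogenase, and the citric acid cycle from 9.27 FPKM to 920 FPKM for citrate synthase. The top gene of the cycle, citrate synthase, and the top pair of glycolysis, glyceraldehyde-3-phosphate dehydrogenase and enolase, were not called. The genes next in FPKM were called. Aldolase in glycolysis (603 FPKM) was higher, and mitochondrial malate dehydrogenase in the cycle (518 FPKM) was lower. The genes called lower in glycolysis lay under 50 FPKM.

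**Figure D5:**
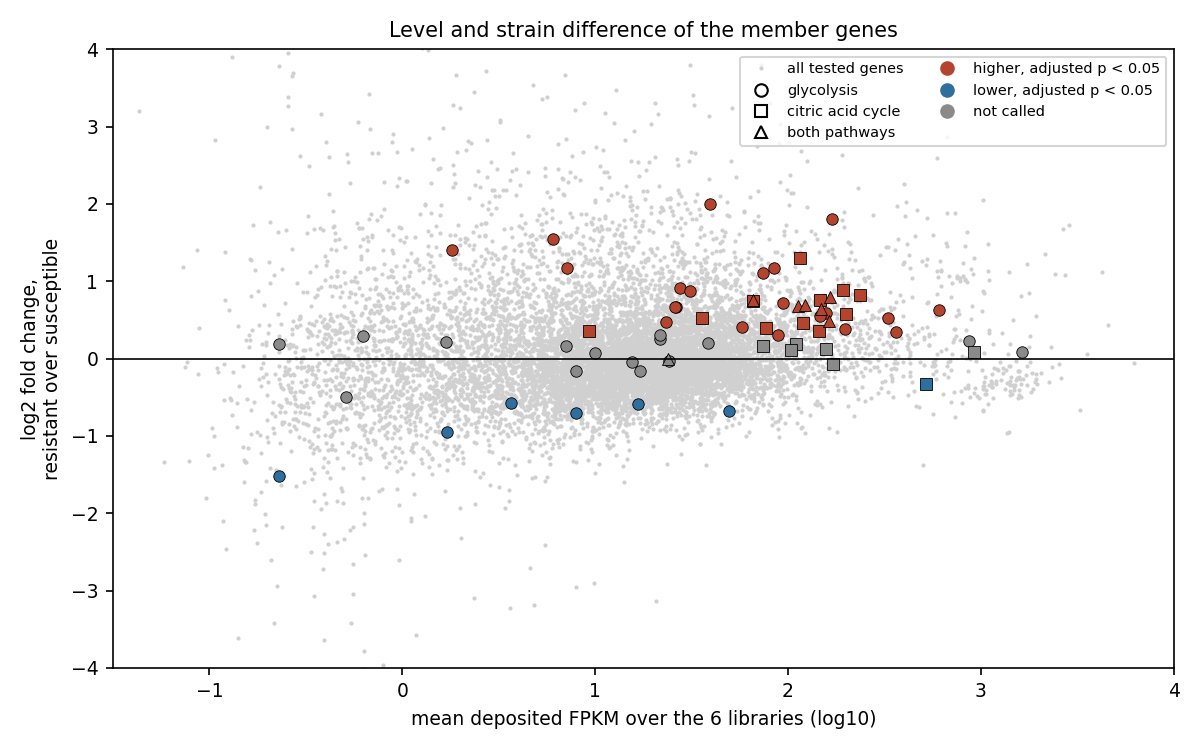
Mean deposited FPKM over the 6 libraries (x axis, log10) against the log2 fold change, resistant over susceptible (y axis), for members (large symbols, by pathway and call) and all tested genes (grey dots). The axis ends at 4 in both directions, so 66 tested genes beyond it are not drawn. Citric acid cycle members sit to the right at high FPKM, and the lower members of glycolysis sit mostly to the left.

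Genes of adjoining pathways, taken by product text or KEGG field and outside the members, are given for comparison beside the same backgrounds. In the pentose phosphate pathway, which makes NADPH and ribose, 14 of 18 tested genes were higher and 0 lower, with a median of 0.57. The KEGG field also places glucose dehydrogenase (FAD, quinone), regucalcin-like and WD repeat genes in this list. Glucose-6-phosphate 1-dehydrogenase (LOC114125017) differed by 0.33 ± 0.08 (edgeR adjusted p = 0.011), a call lost with library totals alone (edgeR adjusted p = 0.136). For 6-phosphogluconate dehydrogenase (LOC114124401) the difference was 0.64 ± 0.11 (edgeR adjusted p = 0.00323). The greatest called difference of this list at 5 CPM or more was that of ribose-5-phosphate isomerase (LOC114126660), at 50.5, 35.5 and 40.5 CPM in the resistant and 17.4, 20.2 and 17.4 CPM in the susceptible replicates (1.197 ± 0.15). Among trehalose and glycogen enzymes, 7 of 10 were higher and 0 lower, with a median of 0.74. Glycogen phosphorylase (LOC114121538), which releases glucose 1-phosphate for phosphoglucomutase, was at 869, 692 and 622 against 232, 232 and 233 CPM (1.65 ± 0.13, edgeR adjusted p = 7.7e-05). Neither this phosphorylase nor the ribose-5-phosphate isomerase overlapped between strains, and resistant replicate 1 was highest for both.

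Of 10 tested control enzymes and mitochondrial carriers, 3 were higher and 0 lower, with a median of 0.07; with library totals alone 1 was lower and the median was -0.08. The tricarboxylate transport protein (LOC114125967), which exports citrate to the cytosol, was at 104, 110 and 109 CPM in the resistant replicates against 41.0, 42.2 and 46.6 CPM (1.32 ± 0.09, edgeR adjusted p = 3.5e-05). The tested phosphatase of pyruvate dehydrogenase (LOC114126067) and its regulatory subunit genes (LOC114128650 and LOC114129485) were not called. Of 10 tested side exits, the malic enzymes, aminotransferases, glutamate dehydrogenase and glycerol-3-phosphate dehydrogenases, 6 were higher and 0 lower, with a median of 0.46. A cytoplasmic-like aspartate aminotransferase (LOC114130497), an enzyme that pairs with malate dehydrogenase in shuttling reducing power, was at 23.8, 19.9 and 22.5 against 7.32, 7.01 and 7.90 CPM (1.57 ± 0.14). Of the 4 succinate dehydrogenase subunits outside the rule, which join the cycle to respiration, 3 were higher and 0 lower, with a median of 0.46. The libraries of the named carrier and aminotransferase were apart between strains.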

How the data were processed

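RNA of 6 libraries was analysed, 3 per strain, grouped by sample title. Per the labels' protocols, libraries were made with an NEBNext Ultra RNA kit, and fastp 0.22.0 and HISAT2 are listed in the submitters' processing notes. The sources used here do not give the counter, its treatment of reads that match several copies, the annotation, the genome build or strand use. Therefore similar copies (the aldehyde dehydrogenases, the inositol polyphosphate phosphatases, E1 alpha, hexokinase) and overlapping or antisense genes may share reads. The authors deposited raw read counts per gene, not normalized, and FPKM values. FPKM, scaled to library totals, served for levels between genes, for shares and ratios within a library, and for some summed levels of gene lists. The authors' own test columns were not used.

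Counts were fitted in R 4.3.3 with edgeR 4.0.16 (TMM, filterByExpr with minimum count 10 and minimum total 15, robust quasi-likelihood F test on strain, Benjamini-Hochberg adjusted p under 0.05 over 11149 genes). Totals were 31290134 to 46681719 counts. SE is the size of the log2 difference divided by the square root of F. Replicate libraries differed beyond sampling noise, with a chi-square per degree of freedom of 7.06 to 128. Enzyme groups within the pathways were formed after values were seen, and members and lists were chosen with earlier results of these data known. They are described by counts and medians with no test of their own. Named were members called with at least 1.5-fold and 5 CPM, every member called lower, and the member with the highest FPKM at each step. Others in the text were chosen after their values were seen. Of 72 members with LOC names, 68 matched the RefSeq gene table of assembly ASM2018417v2, used for neighbours only. The alternatives concerned scaling (DESeq2 size factors, or library totals alone), the tool (limma-voom 3.58.1, or the Wald test of DESeq2 1.42.0), the filter (none, or a CPM over 1 in 3 or more libraries), a block for replicate number, each library left out in turn, a test against 1.2-fold, and membership by all pathway genes or by listed steps only. The fits were tested on simulated data. Tables and figures used Python 3.11.15, pandas 2.3.3 and matplotlib 3.10.9.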

Additional observations from a re-analysis of the deposited data

How the results depend on the processing

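Of 50 named and tested members, 40 were called and 28 of these kept their call under every alternative, and of 698 member results under an alternative 625 stayed on the same side of the threshold, 68 lost the call, 5 gained it and 0 reversed. Library totals alone gave medians of 0.23 for glycolysis and 0.32 for the citric acid cycle, log2 ratios of summed CPM of 0.26 (glycolysis, 0.41 with TMM) and 0.25 (citric acid cycle, 0.40 with TMM), and 2 lower cycle members. Leaving out 1 library, glycolysis had 3 to 5 lower members (3 without each susceptible library) and a median of 0.35 to 0.44, the cycle had 0 to 1 lower members, and all tested genes had 788 to 2826 lower, the highest without resistant replicate 1. The 1.2-fold test called 0 cycle members and 760 genes lower. The cause of these changes was not tested. Replicate numbers did not pair the libraries (correlations of deviations -0.0299 to 0.0398). With the replicate number as a block, 25 glycolysis members were higher and 4 lower, 15 cycle members higher and 0 lower, and 2109 genes higher and 1313 lower. A planned count of promoter motifs was not run, since no promoter sequence was used here. With 3 libraries a strain no outlier test applied, and hexokinase and other genes near 1 CPM are limited by depth.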
